A study of Mus musculus with 460 samples.

Results

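The cells described here were the fibroblasts that carried the platelet-derived growth factor receptor gene Pdgfra together with a high level of Acta2, the smooth muscle alpha-actin gene. They were chosen by 3 measured values. A cell was taken when its Pdgfra count was at least its count of Rgs5, a gene of pericytes, and when Acta2 reached 1000 CPM, that is counts per 1000000 of the cell's total. Of 460 cells, 79 met the rule (17.2%, exact Clopper-Pearson 95% interval 13.8 to 20.9). They made up 30.7% (25.2 to 36.8) of the cells with at least as much Pdgfra as Rgs5, which were 55.9% of all. The other cells of that kind (38.7% of all), 90 with at least 500 CPM of decorin (Dcn) and 88 with less, served as the comparison and are called the other Pdgfra cells. The remaining 44.1% of cells, with more Rgs5 than Pdgfra, are called Rgs5 cells.

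All cells were single-cell libraries of cancer-associated fibroblasts (CAFs), labelled tCAFs, from mice of 1 strain with lung adenocarcinoma, so the sets compared share their genotype. The labels give no treatment, age, sorting gate, animal or culture, and there were no cells of tumour-free lung. All 460 cells therefore count as 1 sample: no p-value was computed, and every interval covers counting error only.

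Smooth muscle alpha-actin is the usual marker of myofibroblasts, fibroblasts that build contractile actin bundles and deposit matrix in wounds, fibrotic tissue and tumours. In the lung it also marks airway and vascular smooth muscle, pericytes in part, and the fibroblasts at the mouths of alveoli and around airways. Its transcription is classically driven by serum response factor with myocardin or the related MRTF coactivators, which act through a short DNA element called the CArG box, and by TGF-beta.

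The values that chose the cells are given as a description. Acta2, on mouse chromosome 19 (GRCm38, 34241090 to 34255590, minus strand), had a level of 1872 CPM over the summed counts of the Acta2-high cells and 328.1 CPM over the other Pdgfra cells. Pdgfra stood at 1687 and 1745 CPM and Rgs5 at 326.8 and 387.8 CPM, against 4620 CPM of Rgs5 in the Rgs5 cells. The limit lay within a continuous range: 18 of the chosen cells were less than 250 CPM above it, the lowest at 1013 CPM, and 19 of the others less than 250 CPM below it, the highest at 991 CPM. In 11 of the chosen cells Pdgfra was less than 2 times Rgs5.

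The chosen cells held a median of 99997 counts (45027 to 175262), the other Pdgfra cells 96161 and the Rgs5 cells 76944. Some columns of the deposited table lie in runs low in Sftpc, the surfactant protein C gene of alveolar epithelium, and these runs held 18 of the 79 Acta2-high cells (22.8%) and 45 of the others (25.3%). Sftpc was counted in 88.6% of the Acta2-high cells, 79.2% of the other Pdgfra cells and 79.3% of the Rgs5 cells, so a gene that fibroblasts should lack had a count in most cells of every set. Below, a level is the summed count of a gene in a set as CPM of the set's total, and a fold is the ratio of 2 such levels with 1 CPM added to each.

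The label held for the fibroblast genes, which the Rgs5 cells carried as well, and less well for Myh11. Of the 11 fibroblast markers besides Pdgfra, 8 had a count in every Acta2-high cell, among them Fn1 (fibronectin), Col1a1, Col1a2, Col3a1, Dcn (decorin) and Vim (vimentin), and Thy1 had one in 98.7%. Lum, for lumican, was counted in 44.3% and Fap, for fibroblast activation protein, in 5.06% (1.40 to 12.5). The fibroblast list, with Pdgfra in it, summed to a median of 25430 CPM in the Acta2-high cells. It summed to 22926 CPM in the other Pdgfra cells and 18792 CPM in the Rgs5 cells, so these genes were not particular to the Acta2-high cells. The pericyte genes Higd1b and Gja4 were counted in 20.3% and 10.1% of the Acta2-high cells but in 67.5% and 61.1% of the Rgs5 cells. Other pericyte genes were present, since Rgs5 was counted in all 79 Acta2-high cells and each had at least 5 genes of the pericyte list. That list, with Rgs5 in it, summed to a median of 3680 CPM in the Acta2-high cells. It summed to 3167 CPM in the other Pdgfra cells and 24719 CPM in the Rgs5 cells. Of the genes given as marking these cells, Tagln was counted in all 79, whereas Myh11 was counted in 42 (53.2%, 41.6 to 64.5).

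Across the genome the Acta2-high cells differed little from the other Pdgfra cells. Of 11799 genes compared, 2.95% differed by at least 2 times: 61 genes (0.517%) were at least 2 times higher and 2.43% at most 1/2 the level. The counts given for each gene list stand against these shares. Of all genes compared, 90.1% lay within 1.5 times of equal. The median log2 fold was -0.05. Many of the past-2-times genes were sparse: 48 of the 61 higher genes (78.7%) had a count in under 50% of the Acta2-high cells, and 91.99% of the lower genes in under 50% of the others. A single cell held at least 25% of the set's counts for 37.7% of the higher and 32.1% of the lower genes. In the set where they were lower, 22 of the 61 higher genes (36.1%) and 57.8% of the lower genes were under 5 CPM or counted in under 10% of cells, so they entered the comparison only through the other set. Within both kinds of columns, low in Sftpc and not, 42.6% of the higher and 40.1% of the lower genes were past 2 times the same way.

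Genes of the contractile apparatus stood out among the higher ones. Of the 30 contractile genes compared, 8 were at least 2 times higher (26.7%, against 0.517% of all genes) and 0 were 2 times lower, with a median log2 fold of 0.40. These 8 were Tagln, Myl9, Tpm2, Myh11, Actg2, Cnn1, Lmod1 and Kcnmb1. In the other Pdgfra cells alone Actg2, Cnn1 and Lmod1 were under the 5 CPM or the 10% of cells asked of a gene to be compared, so they entered only through the Acta2-high cells and had to differ. The list was drawn up with results of these data known, and Acta2, which chose the cells, belongs to it, so the count describes these cells and is no independent support.

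Tagln encodes transgelin, an actin-binding protein of smooth muscle (ENSMUSG00000032085.4; chromosome 9, 45929619 to 45936058, minus strand). In the Acta2-high cells it ranged from 42.8 to 2420 CPM with a median of 437.1 CPM, and in the other Pdgfra cells from 0 to 803 CPM with a median of 68.997 CPM. Only 12 of the others (6.74%) reached the median of the Acta2-high cells, and 3 of the 79 Acta2-high cells (3.80%) lay at or below the median of the others, although the ranges overlapped. The summed level was 615 CPM (598 to 632) against 145.6 CPM (139.9 to 151.4), 4.203 times higher. Exons of Pcsk7 overlap Tagln on the opposite strand, and the sources used here do not say whether counting used strand.

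Myl9 encodes a regulatory light chain of myosin II, whose phosphorylation switches on contraction (ENSMUSG00000067818.6; chromosome 2, 156775420 to 156781658, plus strand). Its level was 247.04 CPM (236.5 to 257.9) against 62.6 CPM (58.9 to 66.4), 3.90 times higher. Single Acta2-high cells ranged from 0 to 914 CPM with a median of 170 CPM, against 0 to 516 CPM and a median of 28.4 CPM in the others. A count was present in 97.5% and 70.8% of cells, and at an equal thinned depth in 94.8% and 60.2%.

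Tpm2, for beta-tropomyosin, which winds along actin filaments, was 2.75 times higher (115.2 against 41.3 CPM; medians 95.4 and 17.5 CPM). At or below the median of the others were 8 Acta2-high cells for Myl9 and 13 for Tpm2, so the sets overlapped for both genes.

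Actg2 was counted in few cells, and Myh11 was at a high level in few cells. Actg2, the gamma-actin of enteric smooth muscle (chromosome 6, 83512905 to 83536265, minus strand), was 13.1 times higher (20.4 against 0.636 CPM), with a count in 22 of 79 Acta2-high cells (27.8%, 18.3 to 39.1) and 6 of the others (3.37%, 1.25 to 7.19). At thinned depth the shares were 20.8% and 1.20%. Myh11, the smooth muscle myosin heavy chain (chromosome 16, 14194535 to 14291372, minus strand), was 3.94 times higher (126.9 against 31.5 CPM), yet its median per cell was 8.94 CPM against 0, and cells of both sets reached about as far (1613 and 1583 CPM). Without the cells that had at least 100 CPM of Myh11, in both sets, its log2 fold went from 1.98 to 0.46 and the count of contractile genes past 2 times from 8 to 4.

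Cnn1 (calponin, 17.3 against 2.43 CPM), Lmod1 (leiomodin, which nucleates actin filaments; 20.7 against 4.51 CPM) and Kcnmb1 (a subunit of the calcium-activated potassium channel of smooth muscle; 36.1 against 10.4 CPM) were 5.35, 3.94 and 3.27 times higher. Cnn1 and Lmod1 were counted in 20.3% and 21.5% of the Acta2-high cells. Pecam1, an endothelial gene, was counted in 21.5% of the same cells, so these shares are no higher than that of a gene of another lineage. The other contractile genes of high level differed by less than 2 times. Mylk, the kinase of the myosin light chain, stood at 1656 and 1416 CPM, Cald1 (caldesmon) at 1542 and 1205, Tpm1 at 1397 and 1068, Csrp1 at 1381 and 925, and Cnn2 at 735 and 489 CPM. Des, for desmin, was near equal at 414.1 and 349.1 CPM, and Itga8 was lower, at 74.02 against 130.5 CPM.

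**Figure D1:**
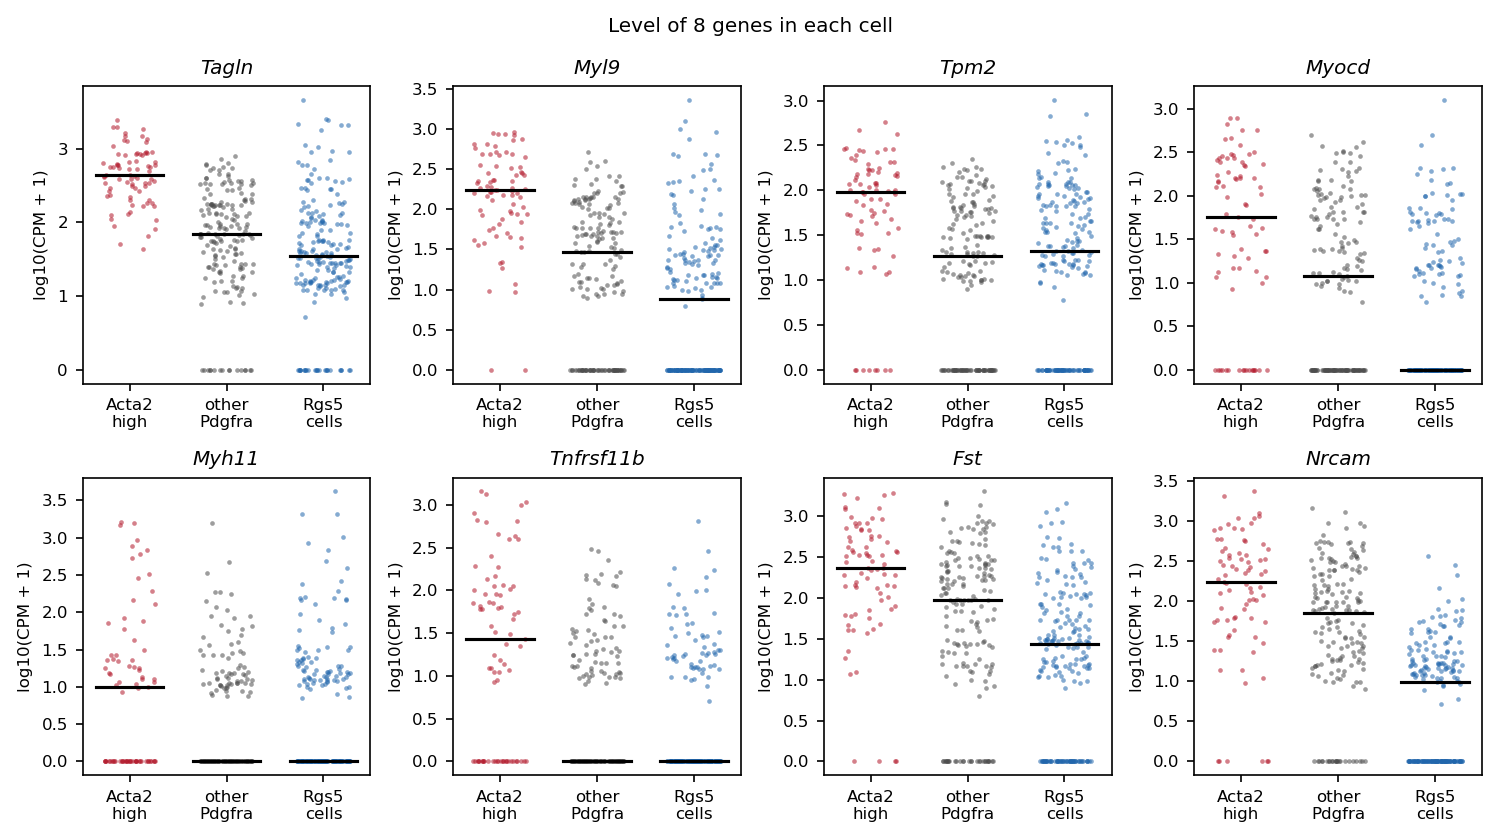
Level of 8 genes in each cell as log10(CPM + 1), in the 79 Acta2-high Pdgfra cells (red), the other Pdgfra cells (grey) and the Rgs5 cells (blue); each point is 1 cell and the black line is the median. Tagln and Myl9 are shifted upward in nearly all Acta2-high cells (medians 437.1 and 170 CPM), whereas Myh11 and Tnfrsf11b are high in a minority of them.

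The CArG box was looked for on both strands in the 250 bases before each annotated start, in RefSeq promoter sequences of GRCm38.p6, because it is the element through which these genes are classically controlled. The pattern asked for was CCWWWWWWGG, where W is A or T, so sites with a mismatch or outside these bases were not found. It was present for 5 of the 28 contractile genes with a promoter in the table (17.9%), and for 1.62% of 27025 genes in all. Acta2 itself was among the 28 and had no such match. Among the 8 genes past 2 times, 5 had a promoter there and 1, Myl9, had a match. The table holds no window for Tagln, Myh11 or Actg2. The matches are shown with their flanks, 5′ to 3′ on the gene's strand, with the CArG letters in capitals. For Myl9 (chr2:156775258-156775357) and Filip1l (chr16:57549135-57549234), 100 bases are given, and for Cnn2 (chr10:79988534-79988563), Myl6 (chr10:128493040-128493069) and Ldb3 (chr14:34588697-34588726), 30 bases.
Myl9: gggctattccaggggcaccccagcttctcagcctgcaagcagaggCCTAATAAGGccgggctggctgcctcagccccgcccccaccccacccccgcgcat
Filip1l: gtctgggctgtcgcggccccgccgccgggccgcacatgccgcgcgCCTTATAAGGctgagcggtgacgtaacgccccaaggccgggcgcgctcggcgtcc
Cnn2: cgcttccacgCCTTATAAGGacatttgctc
Myl6: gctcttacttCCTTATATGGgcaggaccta
Ldb3: gggttacagtCCATTTATGGgcgcagcaag
The match of Filip1l began 62 bases before the start and that of Cnn2 56, and that of Myl9 lay farther upstream. Of the genes compared that held a match, only Myl9 passed 2 times (3.90 times higher). Cnn2, Myl6 and Filip1l were 1.503, 1.41 and 1.23 times higher. Ldb3 was too sparse to be compared (8.97 and 2.14 CPM). A match is a run of letters and does not show that the site is used.

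Among transcription factors of smooth muscle, Myocd alone of 17 compared passed 2 times. Myocardin, the muscle-restricted coactivator of serum response factor (chromosome 11, 65176561 to 65269989, minus strand), had 146.7 CPM (138.6 to 155.2) against 54.6 CPM (51.2 to 58.2), 2.66 times higher. Its median per cell was 56.3 CPM against 10.8 CPM, with a count in 78.5% of the Acta2-high and 57.9% of the other cells. The highest cells reached 772 and 503 CPM, so the sets overlapped widely. Srf, for serum response factor itself, was at 110.7 and 88.1 CPM, and its broadly expressed coactivators Mkl1 and Mkl2 were at 100.8 and 93.2 CPM and at 113.2 and 108.7 CPM. The median log2 fold of the 17 factors was 0.05, close to that of all genes.

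Genes of the general actin cytoskeleton were a little higher. Of 38 compared, 33 were above equal but only Lims2, for a partner of integrin-linked kinase, passed 2 times (22.8 against 9.54 CPM), with a median log2 fold of 0.31. Actb stood at 3552 and 2878 CPM, Flna (filamin A, which crosslinks actin) at 1983 and 1448, Myh9 (non-muscle myosin) at 1460 and 1122, Lpp at 1449 and 989, and Vcl (vinculin, of focal adhesions) at 513 and 271.6 CPM. Of the integrins and adhesion genes, 0 of 22 were 2 times higher.

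Collagen genes, for the other main product of myofibroblasts, were mostly near equal in the 2 sets. In a list of fibrillar and beaded collagens that also held Col8a1, 2 of 16 were higher. Col8a1, a network-forming collagen chain, was 2.65 times higher (191.1 against 71.5 CPM), but its medians were 6.36 and 6.27 CPM, so the difference lay in the cells with the most. Col11a1 (24.8 against 8.27 CPM) was counted in 11.4% and 12.4% of cells. It fell short of 2 times with its highest 5% of cells left out, and with 10 CPM added. The abundant chains Col1a2 (3270 and 3063 CPM) and Col1a1 (3049 and 2753 CPM) were 1.07 and 1.11 times higher. Of 21 genes that modify and crosslink collagen, 0 passed 2 times. Among the matricellular genes Thbs1, for thrombospondin 1, stood at 3769 and 2585 CPM, and Postn, for periostin, at 1160 and 836 CPM. Lower were Dpt (dermatopontin, 35.99 against 88.9 CPM, with 41.9% of the former in 1 cell), Lum (56.8 against 147.6 CPM) and Mmp2, the gene of a gelatinase (303.4 against 614 CPM, medians 155.4 and 311.97 CPM).

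The list of myofibroblast CAF genes had 5 of 16 higher (0.517% of all genes), with a median log2 fold of 0.48. Those 5 were Tagln, Myl9, Tpm2, Cnn1 and Col11a1, so 4 of them are contractile genes counted above. Its matrix members Tnc (tenascin C, 1633 and 1373 CPM) and Col12a1 (1526 and 1082 CPM) were within 2 times. Ncam1 was lower, at 2.63 against 33.1 CPM, and a single other cell held 41.6% of the latter.

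**Figure D2:**
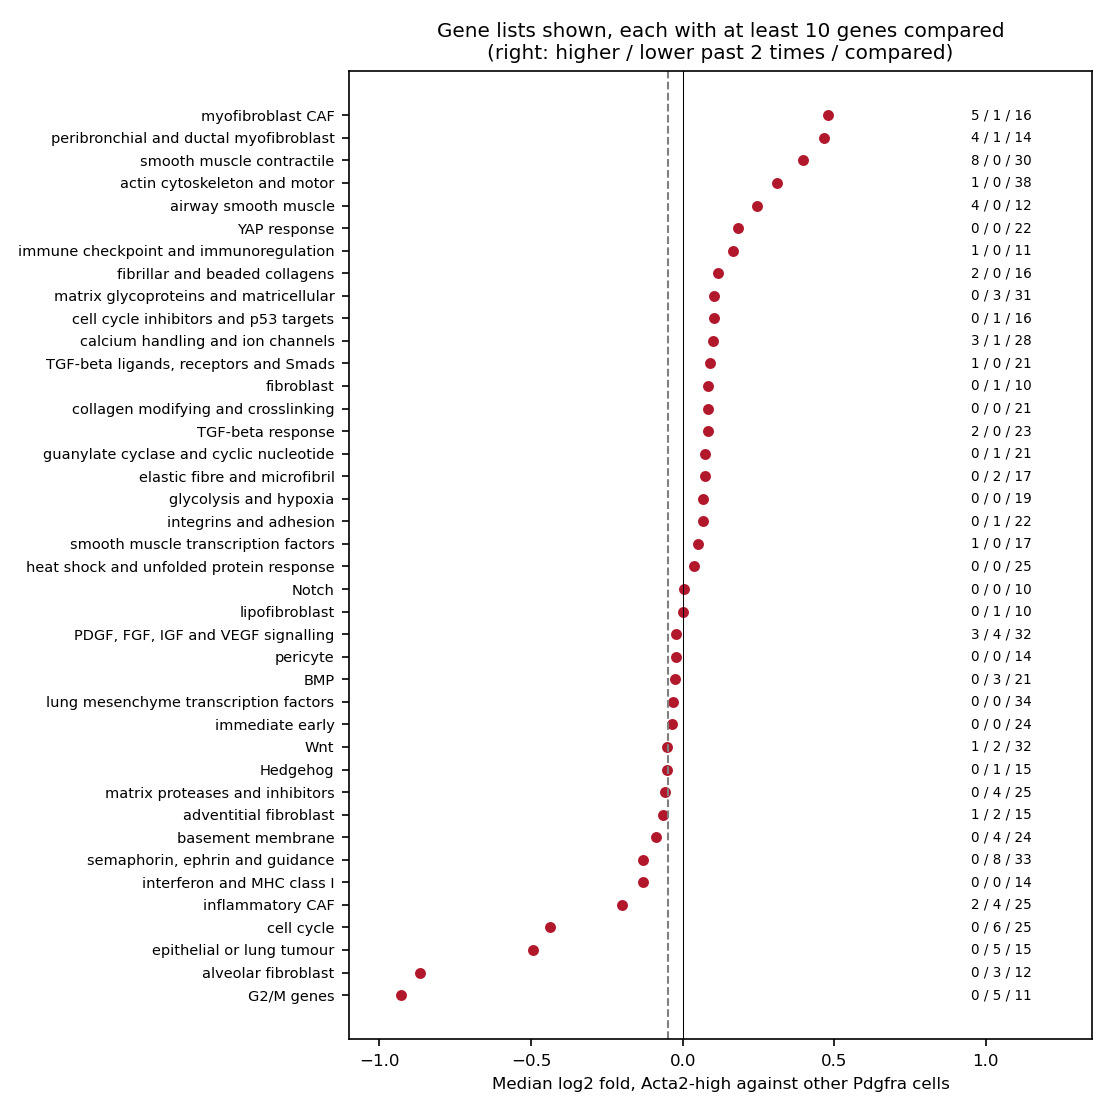
Median log2 fold of the genes compared in the lists shown, each with at least 10 of them, between the 79 Acta2-high and the other Pdgfra cells; the dashed line is the median of all genes, and the numbers at the right give the genes past 2 times higher, past 2 times lower and compared. Myofibroblast CAF, peribronchial and contractile lists lie at the top (medians 0.48, 0.47 and 0.40) and G2/M and alveolar fibroblast genes at the bottom.

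Some secreted signals and inhibitors were higher and others lower, and they come from several lists. Tnfrsf11b encodes osteoprotegerin, a decoy receptor for the cytokine RANKL (ENSMUSG00000063727.3; chromosome 15, 54250619 to 54278484, minus strand). It was 6.89 times higher, at 148.5 CPM (140 to 157.01) against 20.7 CPM (18.6 to 22.96). Cells ranged from 0 to 1455 CPM with a median of 26.03 CPM in the Acta2-high set, and from 0 to 304.2 CPM with a median of 0 in the others. It was counted in 65.8% and 40.4% of cells (64.9% and 30.1% at thinned depth), and 27 Acta2-high cells had none.

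Fst, for follistatin, which binds and blocks activins, was the 1 gene past 2 times among 21 ligands, receptors and Smads of the TGF-beta family. It stood at 427.8 against 192.2 CPM (2.22 times), with medians of 230 and 92.3 CPM. Within the columns low in Sftpc its log2 fold was 0.91, short of 2 times. The receptor gene Tgfbr2 was at 771 and 831 CPM. Of 23 genes induced by TGF-beta, only Tagln and Cnn1 passed 2 times.

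Fgf18, a growth factor of lung development made by mesenchyme, was 3.52 times higher (89.9 against 24.8 CPM), with a count in 55.7% and 29.2% of cells and single cells up to 1391 and 1476 CPM. Igfbp2, a carrier of insulin-like growth factors, was 4.09 times higher (47.6 against 10.9 CPM), and Areg, for amphiregulin, 2.75 times (13.99 against 4.45 CPM). Igfbp2 and Areg were each counted in under 25% of cells, and outside the columns low in Sftpc the log2 fold of Areg was 0.65. Wif1, a secreted inhibitor of Wnt ligands, lay at the limit, 2.01 times higher (307.6 against 152.3 CPM), with medians of only 20.001 and 11.9 CPM. Outside the columns low in Sftpc its log2 fold was 0.80.

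In the opposite direction, growth factor genes Fgf1 (17.5 against 52.97 CPM), Fgf7, Pdgfc and Igfbp6 were lower. Of 21 BMP pathway genes, 0 were higher and Gdf10 (20.3 against 78.5 CPM), Bmp2 (4.31 against 16.7 CPM) and Bmp6 (28.1 against 59.7 CPM) were lower. Gas1, a co-receptor of Hedgehog ligands, stood at 4.78 against 22.7 CPM, while Ptch1, the receptor and target of that pathway, was near equal at 1281 and 1358 CPM. Of 33 guidance genes 8 were lower and 0 higher (2.43% and 0.517% of all genes), led in level by Sema3a (28.1 against 65.6 CPM) and the netrin receptor gene Unc5c (16.98 against 50.4 CPM, with 58.5% of the former in 1 cell). Without the cells that carried posterior Hox genes, described below, the log2 fold of Unc5c went from -1.52 to -0.78.

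A further 3 genes were higher by the rule that asked for a level of 20 CPM and a count in 50% of the cells in the set where a gene is higher, and 2 times in both column sets. In the other Pdgfra cells Tnfrsf11b, Myh11, Fgf18 and Acsl6 were counted in under 50% (40.4%, 40.4%, 29.2% and 30.9%). Nrcam, a cell adhesion molecule best known from neurons, stood at 337.08 against 157.6 CPM (medians 172.9 and 70.4 CPM). Acsl6, which activates long-chain fatty acids, stood at 52.7 against 18.6 CPM, with exons of Gm12224 on the opposite strand. At an Acta2 limit of 2000 CPM the log2 fold of Nrcam was 0.73, and at 500 CPM that of Acsl6 was 0.85, both short of 2 times. Col8a1 was given above. In all, 10 genes met this rule on the higher side: Tnfrsf11b, Tagln, Myh11, Myl9, Fgf18, Tpm2, Acsl6, Myocd, Col8a1 and Nrcam.

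On the lower side 3 genes met it. Thbd, for thrombomodulin, a receptor that restrains clotting, stood at 27.9 against 79.9 CPM, and Cgnl1, for a protein of cell junctions, at 29.9 against 72.5 CPM. Pcdhb9, a clustered protocadherin, stood at 25.1 against 64.5 CPM. Its medians were close, at 6.96 and 7.27 CPM, and it was counted in 56.96% of the Acta2-high and 51.7% of the other cells (40.3% and 42.2% at thinned depth). Cgnl1 was counted in 55.7% of the Acta2-high and 70.8% of the other cells, and Thbd in 55.7% and 57.3% (41.6% and 53.01% at thinned depth). With the Acta2 limit at 500 or 2000 CPM the log2 fold of Thbd was -0.56 and -0.34, short of 2 times. Without the cells that carried posterior Hox genes, that of Cgnl1 was -0.82.

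Markers of named lung fibroblasts did not move as 1 block. Of 14 genes of peribronchial and ductal myofibroblasts compared, 4 were higher (Tagln, Actg2, Myh11 and Fgf18) and Aspn was lower, with 64.3% of its counts in the other Pdgfra cells from 1 cell, but Hhip, a Hedgehog inhibitor that marks these cells and airway smooth muscle, was near equal at 210.3 and 200.97 CPM, and Lgr6 stood at 35.5 and 47.1 CPM. Of 12 alveolar fibroblast genes, 11 were below equal and 3 at most 1/2 the level (Ces1d, Slc36a2 and Figf), with a median log2 fold of -0.86. Inmt stood at 53.7 against 105.02 CPM, but was counted in 55.7% of the Acta2-high and 51.7% of the other cells (49.4% and 39.8% at thinned depth). Tcf21, a transcription factor of lipid-storing fibroblasts, stood at 11.96 against 23.6 CPM, and Npnt went the other way, at 135.4 against 98.4 CPM. Summed per cell, the alveolar list had close medians of 1749 and 1904 CPM.

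Among 25 inflammatory CAF genes, Ly6a and Cxcl10 were higher and Saa3, Pi16, C3 and Il33 were lower. Ly6a (30.9 against 4.28 CPM) was counted in 13.9% of Acta2-high cells, and 1 cell held 84.5% of its counts. The direction of Cxcl10 turned between the column sets (log2 fold -3.13 in the columns low in Sftpc). Saa3, an acute-phase protein gene, was counted in 2 of 79 Acta2-high cells (2.53%, 0.308 to 8.85) and 34 of the others (19.1%, 13.6 to 25.7). C3, the central complement gene, stood at 156.6 against 385.2 CPM, with medians of 14.3 and 18.4 CPM. It turned to a log2 fold of 0.36 within the columns low in Sftpc, where there were 18 Acta2-high cells. Lum turned there as well, to 0.98.

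Matrix proteases were lower where they differed. Mmp9, a gelatinase gene, stood at 19.3 against 127.4 CPM with a count in 35.4% and 42.7% of cells. Mmp3 (3.71 against 40.9 CPM) and Mmp13 (2.87 against 37.7 CPM), for a stromelysin and a collagenase, rested on few cells, since 1 other cell held 88.04% of the Mmp13 counts. Their inhibitor gene Timp3 was at 2134 and 1428 CPM.

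For lists of this size a count of 0 is near the background, since 2.95% of all genes passed 2 times in either direction. Lists with no gene past 2 times were the immediate early genes (0 of 24), heat shock and unfolded protein response (0 of 25), glycolysis and hypoxia (0 of 19), YAP response (0 of 22), Notch (0 of 10), and interferon and MHC class I genes (0 of 14). The pericyte list also had 0 of 14, with Mcam at 571 and 424.7 CPM and Abcc9, a subunit of the KATP channel, at 260 and 288.5 CPM. Cell cycle genes were lower in 6 of 25 (2.43% of all genes), all counted in under 25% of cells. Cells with at least 5 G2/M genes counted at thinned depth numbered 7 among the Acta2-high cells and 12 in the larger set of others. At full depth such cells made up 15.2% of the Acta2-high and 12.9% of the other Pdgfra cells.

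Counts of other cell types were similar in the 2 sets at the median. The epithelial list summed to a median of 689 CPM (0 to 7450) in the Acta2-high cells and 776 CPM (0 to 34969) in the others, with Sftpc at 322.02 and 453.9 CPM; 5 of its 15 genes compared were lower. The immune list summed to 77.4 CPM (0 to 972) and 82.2 CPM (0 to 7109), and Lyz2 (52.6 against 148.2 CPM) and Laptm5 were lower. The endothelial list summed to a median of 34.4 CPM (0 to 4535) and 38.95 CPM (0 to 5778). Of its 8 genes compared, 3, Kdr (31.1 against 3.07 CPM), Cdh5 (26.3 against 6.77 CPM) and Pecam1 (26.4 against 8.73 CPM), were past 2 times higher, but 1 Acta2-high cell held 82.3%, 77.3% and 72.4% of their counts. Without the 3 Pdgfra cells that had at least 1000 CPM of this list, 2 of them Acta2-high, none of these genes passed 2 times and 57 genes were higher in all. Of the erythroid list, 4 of 6 genes had no count in the Acta2-high cells.

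Posterior Hox genes, which mark mesenchyme from behind the lung, summed to at least 200 CPM in 10 of the other Pdgfra cells and in 0 of the Acta2-high cells, where the highest was 187.7 CPM. Leaving out those 10 cells kept 59 of the 61 higher genes (96.7%) and 74.6% of the lower genes.

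The difference did not begin at the chosen limit. When the Pdgfra cells were put in 7 bands of Acta2, the level of Tagln was 61.99 CPM in the 73 cells of the lowest band, 108.3 in the next 23 cells, up to 250 CPM of Acta2, 141.3 in the 42 at 250 to 500, 287.6 in the 40 at 500 to 1000, 435.4 in the 57 at 1000 to 2000 and 972 CPM in the 19 at 2000 to 4000. Myl9 went from 28.5 through 49.4, 55.4, 124.3 and 173.8 to 398.6 CPM over the same bands, and Tpm2 from 18.9 to 169.3 CPM. Myocd was 40.3 CPM in the lowest band and 187.03 CPM in the 19 cells. Tnfrsf11b stayed between 10.1 and 38.8 CPM below the limit, was 98.2 and 298.7 CPM in the next 2 bands and 12.3 CPM in the 3 cells at 4000 CPM and over. The last of these bands is thin, and without it and the top 3 cells the highest values were 435.4, 173.8, 88.6 and 117.5 CPM for Tagln, Myl9, Tpm2 and Myocd. The Spearman rho of Acta2 with the total count was 0.036 among the 79 Acta2-high cells and 0.230 over all Pdgfra cells.

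**Figure D3:**
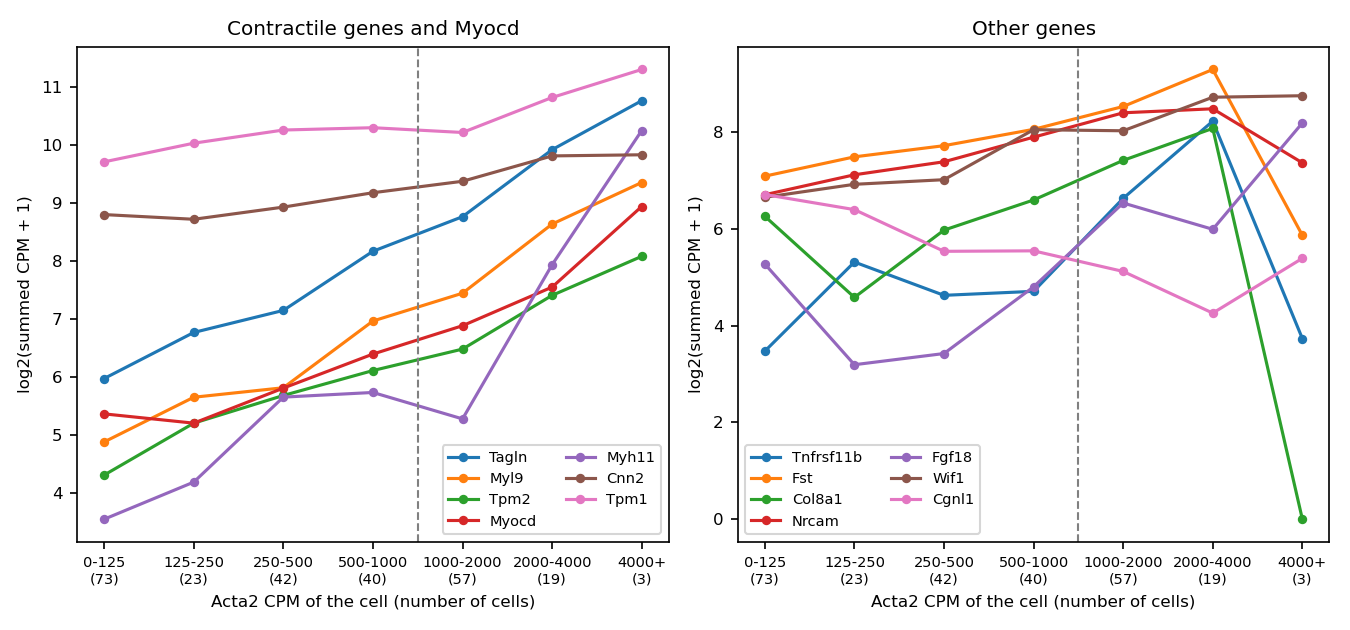
Summed level, as log2(CPM + 1), of 14 genes in 7 bands of Acta2 CPM among the Pdgfra cells, with the number of cells in each band in brackets; the dashed line marks the limit of 1000 CPM. Tagln, Myl9 and Tpm2 are higher in each successive band (Tagln from 61.99 to 972 CPM at 2000 to 4000), and the last point rests on 3 cells.

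The Acta2-high cells were not uniform. Across the 79 cells, the genes that followed Acta2 most closely by rank were Tagln (Spearman rho 0.56), Tpm1 (0.53), Myl9 (0.48), Mfhas1 (0.44), Kif3c (0.41), Lpp (0.39), Ak5 (0.38), Palld (0.38), Tpm2 (0.37) and Cnn2 (0.37), out of 6984 genes with a count in at least 50% of them. Palld encodes palladin, which organises actin bundles. The lowest were Isca1 (-0.40), Rasa3 (-0.40), Matr3 (-0.39), Nf1 (-0.37) and Dgkd (-0.37). These are descriptions across cells of 1 sample that share depth and composition. Over 300 pairs of 25 contractile genes the mean rho was 0.08, positive in 68.3% of them.

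A small number of cells had a high level of Myh11, and some other smooth muscle genes were higher in them. Myh11 reached 100 CPM in 13 of the 79 Acta2-high cells (16.5%, 9.06 to 26.5), 9 of the others (5.06%, 2.34 to 9.38) and 10 of the 24 Rgs5 cells that also had 1000 CPM of Acta2 (41.7%, 22.1 to 63.4). This limit was chosen after the values were seen. In the 13 cells Hhip stood at 687 CPM against 116.5 CPM in the other 66, with a count in all 13 and in 46, and 1 cell held 43.6% of the counts of the 13. Without each gene's highest cell, an alternative chosen after seeing the data, the set had 410.8 CPM of Hhip, 39.96 CPM of Cnn1 and 56.4 CPM of Col15a1. Cnn1 (71.97 against 6.58 CPM), Kcnmb1 (110 against 21.5 CPM) and Pdlim3 (160 against 21.3 CPM) were also higher, as were Tagln (1066 against 526 CPM) and Myocd (274.1 against 121.7 CPM). However, Cnn1 and Actg2 were each counted in only 7 of the 13 cells and Lmod1 in 5. Some contractile genes were lower, among them Des (335.8 against 429.5 CPM) and Synm (13.8 against 36.9 CPM). Lower in the 13 cells were Cxcl12, a chemokine gene of fibroblasts (12.4 against 222.1 CPM), Col15a1 (96.7 against 611 CPM) and C3 (25.4 against 182.5 CPM). Between these 13 and 66 cells, 4.03% of all genes were at least 2 times higher and 10.5% at most 1/2 the level, so differences of this size were common there. Pdgfra stood at 2049 and 1616 CPM in the 13 and the 66 cells, and Rgs5 at 244.97 and 342.9 CPM.

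A different group of genes varied together across the 79 cells. Fst and Col8a1 had a rho of 0.59, Tnfrsf11b and Col8a1 0.57, Tnfrsf11b and Fst 0.51, and Fst and Postn 0.48, whereas Fst and Hhip had -0.35. In the other Pdgfra cells the same pairs of Fst, Tnfrsf11b and Col8a1 had 0.15, 0.04 and 0.25, in the order Fst with Col8a1, Tnfrsf11b with Col8a1, and Tnfrsf11b with Fst. Nrcam and Wif1 had 0.59. The 3 cells with the most Acta2, at 4378, 4221 and 4084 CPM, had 1613, 1493 and 324.9 CPM of Myh11 and 5275, 603 and 46.4 CPM of Hhip. Their Tnfrsf11b was 0, 29.7 and 0 CPM and their Col8a1 0 in all 3.

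**Figure D4:**
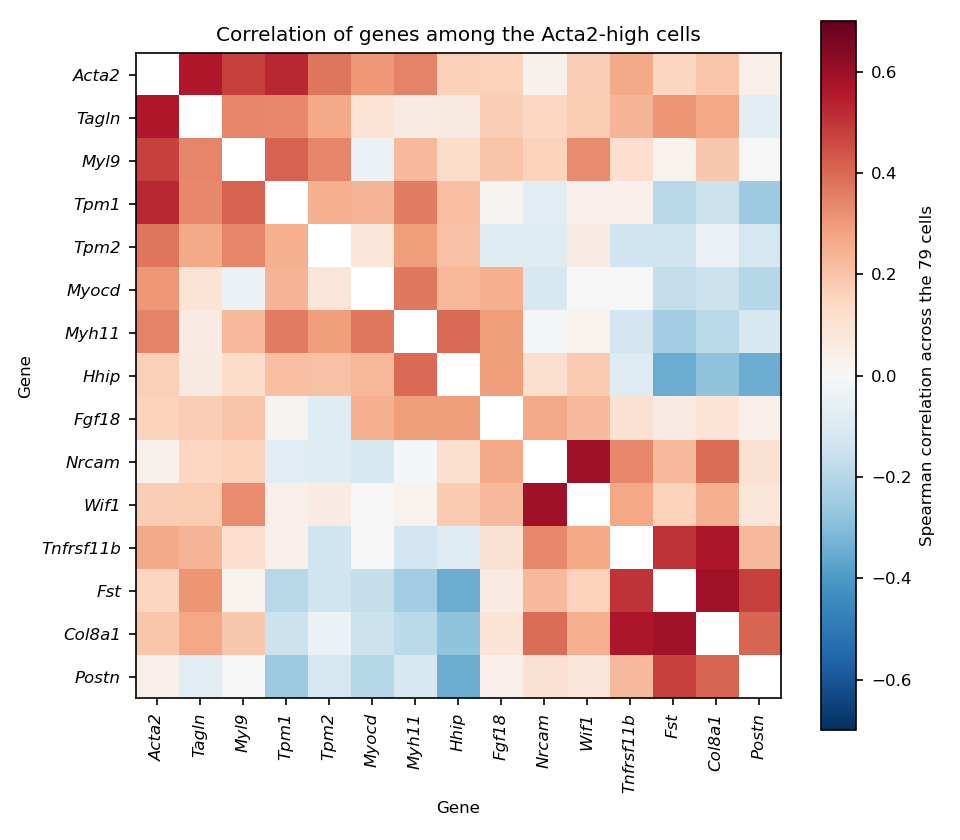
Spearman correlation across the 79 Acta2-high cells for each pair of 15 genes, red for positive and blue for negative; the diagonal is left white. Tnfrsf11b, Fst and Col8a1 form a red block (0.51 to 0.59), and Fst with Hhip is blue (-0.35).

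The Pdgfra cells were also split by Dcn, for a proteoglycan of fibroblast matrix, and the contractile difference was present on both sides. Dcn reached 500 CPM in 49 of the Acta2-high cells and in 90 of the other Pdgfra cells. Among Dcn-high cells Tagln stood at 709 against 178.3 CPM (3.96 times) and among Dcn-low cells at 483 against 115.4 CPM (4.16 times). Tpm2 (2.78 and 2.63 times), Actg2 (12.99 and 12.4 times) and Cnn1 (5.10 and 4.87 times) were likewise close on both sides, and Kcnmb1 was 2.93 and 3.33 times higher. Less even were Myl9 (3.26 and 4.67 times), Myh11 (3.14 and 5.28 times) and Lmod1 (2.70 and 6.46 times), each with the larger fold among Dcn-low cells. Of the 30 contractile genes, 8 were higher among Dcn-high cells, where 0.992% of all genes were higher and 4.09% at most 1/2 the level, and 11 among Dcn-low cells, where 1.88% were higher and 4.72% at most 1/2 the level. Some genes outside the contractile list were uneven as well. Wif1 was 1.94 times higher among Dcn-high cells (476 against 244.6 CPM) but 1.07 times among Dcn-low cells (72.1 against 67.3 CPM). Tnfrsf11b stood at 224.6 against 30.6 CPM and at 41.9 against 11.6 CPM, and Thbd at 20.5 against 115.5 CPM and at 38.2 against 47.02 CPM. Fgf18 showed the reverse, 2.18 times among Dcn-high and 7.83 times among Dcn-low cells. None of these differences between the sides was tested.

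The Rgs5 cells were split at the same Acta2 limit, into 24 cells at or above 1000 CPM and the rest below, to show which genes went with Acta2 there too. With so few cells, 3.52% of 11690 genes were at least 2 times higher and 9.02% at most 1/2 the level. Of 29 contractile genes compared, 15 were higher and 0 lower, with a median log2 fold of 1.02. Of the 28 compared in both kinds of cell, 6 were higher in both, 8 in the Rgs5 cells alone and 0 in the Pdgfra cells alone. The matching shares over all genes were not computed. Acta2 itself stood at 2569 against 193.6 CPM among Rgs5 cells (13.2 times), a wider contrast than the 5.69 times among Pdgfra cells. The folds on the 2 sides are therefore not for a like difference in Acta2. Tagln was 18.9 times higher among Rgs5 cells (1180 against 61.4 CPM), Myl9 21.4 times and Myh11 30.1 times. Myocd (120 against 16.5 CPM), Tnfrsf11b (55.7 against 9.12 CPM), Fst (243.7 against 77.2 CPM) and Col8a1 (299.04 against 54.1 CPM) were also higher in the Acta2-high Rgs5 cells. However, in 8 of these 24 cells Rgs5 was less than 2 times Pdgfra, and some of the 8 had much Dcn, up to 5096 CPM. How far the differences rested on those cells was not tested.

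Some genes went with Acta2 in the Pdgfra cells but were near equal in the Rgs5 cells. Fgf18 stood at 10.6 and 10.3 CPM there, Acsl6 at 20.3 and 16.4 CPM, and Spon2, which was 1.83 times higher in the Acta2-high Pdgfra cells, at 260.99 and 330.97 CPM. Itga8, lower in the Acta2-high Pdgfra cells, was higher in the Acta2-high Rgs5 cells (274.3 against 93.4 CPM). Thbd was 2.80 times lower in the former and 1.91 times higher in the latter. With 1 sample, the difference between the 2 kinds of cell could not be tested.

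**Figure D5:**
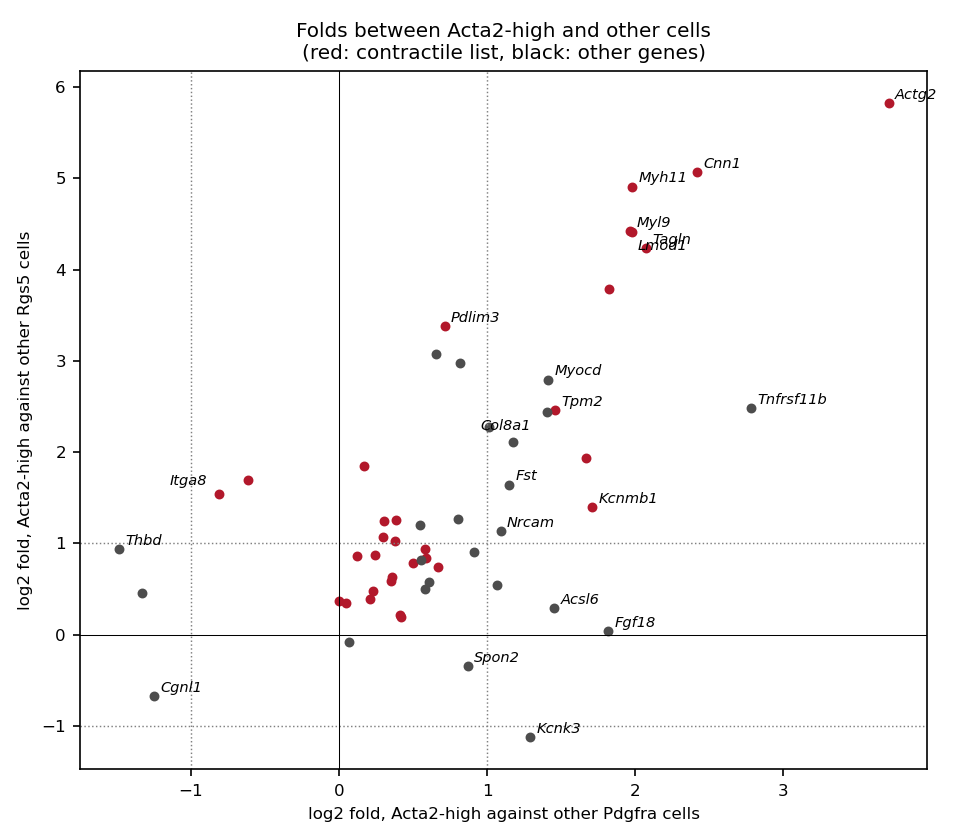
Log2 fold of single genes, without Acta2, between Acta2-high and other cells, among Pdgfra cells (horizontal axis, 79 Acta2-high cells) and Rgs5 cells (vertical axis, 24 Acta2-high cells). Red points belong to the contractile list and the dotted lines mark 2 times. Actg2, Cnn1 and Sncg are shown although they were too sparse to be compared among the Rgs5 cells. Most contractile genes lie right of and above 0, and Fgf18 and Acsl6 lie near 0 on the vertical axis.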

How the data were processed

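The deposited table holds, by its own name, counts of molecular barcodes per gene for 460 single cells, and the authors' steps were STAR alignment, HTSeq counting and the mm10 build, per the submitters' processing notes, with no versions. How reads became cells, and whether counting used strand, is not given in the sources used here. Each cell is a deposited sample. Since its animal or culture is not in the labels, the cells were treated as 1 sample and nothing was tested. The cells and gene lists were chosen with earlier results of these data known.

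Counts were summed over each set and divided by the set's total (CPM). Genes entered with at least 5 CPM and a count in 10% of the Pdgfra cells, and were called at 2 times with 1 CPM added. Summed levels have exact Poisson and shares exact Clopper-Pearson 95% intervals. Totals per cell ran from 25029 to 240496 counts. Thinned shares use 56586 counts per cell and leave out 46 shallower cells, 2 of them Acta2-high, 12 other Pdgfra cells and 32 Rgs5 cells. A column was called low in Sftpc when most of its 20 neighbours had under 30 CPM. Genes were named from the gene lists and by a rule of 20 CPM, a count in 50% of cells in the set where a gene is higher, and 2 times in both kinds of columns and without each gene's highest 5% of cells, at most 15 a direction. Correlations are Spearman's on log2(CPM + 1). No doublet caller was run. The strain's name and a few results are not reported here. Python 3.11.15 and, for TMM factors, edgeR 4.0.16 were used, and the fold script was tested on simulated data.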

Additional observations from a re-analysis of the deposited data

How the results depend on the processing

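The share of Acta2-high cells was 17.2% at 1000 CPM, 25.9% at 500 CPM and 4.78% at 2000 CPM. Of the genes compared, 0.517% were higher. That share became 1.38% and 1.75% at those limits, 1.02% with the highest 5% of cells of each gene left out, 0.195% with 10 CPM added, 0.243% with a filter of 20 CPM, 0.848% without a filter, 2.59% at 1.5 times, 0.186% at 3 times and 4.15% in the columns low in Sftpc, which hold 18 and 45 cells. Lower genes, 2.43%, became 7.02% at 2000 CPM, 0.653% with 10 CPM added, 1.07% with the filter of 20 CPM, 3.54% without a filter, 7.29% at 1.5 times, 0.932% at 3 times and 9.85% in the columns low in Sftpc. Higher genes made up 17.5% of those past 2 times, but 45.4% at the limit of 500 CPM, 34.3% without the highest cells and 29.6% in the columns low in Sftpc. The 8 contractile genes became 4 with the filter of 20 CPM and 4 without the cells with at least 100 CPM of Myh11. That alternative, and leaving out cells rich in endothelial counts, were chosen after seeing the data. Under 17 alternatives each, Tnfrsf11b, Tagln, Myl9, Fgf18, Tpm2, Myocd and Col8a1 kept their direction past 2 times. These were named by a rule that already asked for 2 times in both kinds of columns and without the highest 5% of cells. Those alternatives were therefore passed in advance for them. Actg2, Cnn1, Kcnmb1, Igfbp2, Mmp9, Gdf10 and Gas1 also kept their direction past 2 times under 17 alternatives each. Mmp2 did in 7 and Bmp6 in 9. The direction turned for Cxcl10 (-3.13), Lum (0.98) and C3 (0.36) in the columns low in Sftpc and for Pecam1 (-0.28) without cells rich in epithelial, immune and endothelial counts; the cause was not tested. TMM scaling gave 0.610% higher and 2.18% lower genes. No paired analysis was possible because all cells are 1 sample, and no replicate could be left out.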

Other observations

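Several other gene groups were measured in the same cells, and their counts stand against 0.517% of all genes higher and 2.43% lower. Of 28 genes of calcium handling and ion channels, Kcnmb1, Cacna1h (39.3 against 18.3 CPM), a T-type calcium channel, and Kcnk3 (10.6 against 3.76 CPM), a potassium channel, were higher in the Acta2-high cells and Cacna1d was lower. The last pair of the higher ones kept 2 times in 12 and 11 of 17 alternatives. Of 34 transcription factors of lung mesenchyme, 0 passed 2 times in either direction. Of 24 basement membrane genes 0 were higher and 4 lower. Of 10 lipofibroblast genes, only Lpl was past 2 times, and lower. Vascular and airway smooth muscle lists had 3 of 9 and 4 of 12 genes higher and 0 lower, and of these Myh11 and Cnn1 belong to both. The median log2 folds of these 2 lists were 0.06 and 0.25. Igf1, for insulin-like growth factor 1, stood at 2744 against 2074 CPM.

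Bmp3 and Igf2 were 1.76 and 1.58 times higher in the Acta2-high than in the other Pdgfra cells, and 7.86 and 8.46 times higher in the Acta2-high than in the other Rgs5 cells. Bmp3 stood at 275.6 and 156.4 CPM in the Pdgfra cells and at 233.6 and 28.9 CPM in the Rgs5 cells. The Acta2-high Rgs5 cells numbered 24, and in 8 of them Rgs5 was less than 2 times Pdgfra. Acta2 itself was 13.2 times higher across the split of the Rgs5 cells and 5.69 times across that of the Pdgfra cells. The difference between the 2 kinds of cell was not tested.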
